A study of Homo sapiens with 10 samples.

Results

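The broad ZMYND8 antibody peaks were the 842 peaks of at least 1000 bp among the 15086 peaks that ChIP-seq with an antibody to ZMYND8 gave in HEK293 cells, an established human embryonic kidney line. They were chosen by width alone on chromosomes 1 to 22 and X, the width being the distance between the start and end that the authors deposited for each peak. The rule therefore fixed their width, and neither their position nor their bases. The study asked where in the genome ZMYND8 is bound, with 2 replicates of each ChIP: against ZMYND8, against FLAG, and against the histone marks H3K14ac and H3K27ac. The 2 histone ChIPs and the 2 input samples are not analysed here. For the second list, 3xFLAG-ZMYND8 was expressed in Flp-In T-REx HEK293 cells under a promoter induced with 10 nM doxycycline and was precipitated with anti-FLAG, so that those cells held tagged protein besides their own. For the ZMYND8 ChIP, the labels speak of cells with the tagged protein in wild-type or N228F form and do not say which form these samples had, and whether the antibody recovered endogenous or tagged protein cannot be told apart. In both, chromatin was cut with micrococcal nuclease and sonicated. Each target has 1 list, which names no replicate and gives no read count, so the depth is unknown and no comparison could be set against replicate error.

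ZMYND8 is a chromatin reader. Its PHD finger, bromodomain and PWWP domain lie side by side and together engage histone tails as well as DNA. The study reports H3K14ac as the main driver of binding in vitro, and other marks as seemingly tolerated except higher states of lysine methylation. The MYND domain of ZMYND8 binds partner proteins, among them components of the NuRD repressor complex. CpG islands, stretches rich in G and C in which the CpG dinucleotide is not depleted, lie at many promoters, and elsewhere in the genome CpG is scarce because methylated cytosine mutates readily. The CpG ratio used here is the number of CpG observed over the number that the C and G content predicts.

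Sequences of 200 bp from 7 broad peaks show the range of bases that the peaks covered, on hg19 (GRCh37), written 5′ to 3′ with each CpG in capitals. The first 3 come from the broad peaks at SLC7A5, which encodes a transporter of large neutral amino acids, and at its pseudogenes SLC7A5P2 and SLC7A5P1. They are shown because these 3 peaks lie on near-identical copies. The SLC7A5 stretch, chr16:87903114-87903313 on the minus strand, ends at the gene start, and the pseudogene stretches, chr16:21531779-21531978 and chr16:29625047-29625246 on the same strand, are their best matches to it, with 11 edits each. All 3 hold 27 CpG.
SLC7A5: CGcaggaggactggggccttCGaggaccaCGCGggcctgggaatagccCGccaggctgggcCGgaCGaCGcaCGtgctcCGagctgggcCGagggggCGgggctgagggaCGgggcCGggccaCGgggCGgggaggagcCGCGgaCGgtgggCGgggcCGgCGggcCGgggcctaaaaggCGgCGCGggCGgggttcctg
SLC7A5P2: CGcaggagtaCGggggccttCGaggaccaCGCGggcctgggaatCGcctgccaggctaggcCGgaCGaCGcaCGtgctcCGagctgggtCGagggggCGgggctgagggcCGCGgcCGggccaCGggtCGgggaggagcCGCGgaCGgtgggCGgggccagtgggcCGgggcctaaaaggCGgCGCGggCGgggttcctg
SLC7A5P1: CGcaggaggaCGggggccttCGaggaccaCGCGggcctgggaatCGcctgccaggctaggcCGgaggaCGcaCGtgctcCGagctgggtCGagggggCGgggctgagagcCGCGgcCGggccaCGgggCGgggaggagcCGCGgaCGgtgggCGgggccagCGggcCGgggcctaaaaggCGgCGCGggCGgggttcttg

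The next 4 show a GC-rich promoter, a CpG-rich intron, a coding exon and a CpG-poor intron. The stretch before the start of ADCY3, an adenylate cyclase gene, at chr2:25143107-25143306 (minus strand), holds 33 CpG. The centre of the peak at FOXO1, in the first intron, chr13:41239082-41239281, holds 22 CpG, and that of the peak in the coding exon of TCHH, chr1:152082730-152082929, holds 10. The centre of the peak in an intron of SMUG1, chr12:54554759-54554958, holds 5. The last 3 are given on the plus strand of the genome.
ADCY3: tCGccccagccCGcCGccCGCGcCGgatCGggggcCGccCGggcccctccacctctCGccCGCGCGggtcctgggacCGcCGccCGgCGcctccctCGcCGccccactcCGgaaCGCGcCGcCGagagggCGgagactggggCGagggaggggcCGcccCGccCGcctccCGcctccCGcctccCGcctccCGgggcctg
FOXO1: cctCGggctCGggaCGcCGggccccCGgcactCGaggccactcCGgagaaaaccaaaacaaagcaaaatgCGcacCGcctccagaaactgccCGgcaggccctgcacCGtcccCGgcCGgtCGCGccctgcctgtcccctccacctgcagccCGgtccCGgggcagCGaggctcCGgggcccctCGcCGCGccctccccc
TCHH: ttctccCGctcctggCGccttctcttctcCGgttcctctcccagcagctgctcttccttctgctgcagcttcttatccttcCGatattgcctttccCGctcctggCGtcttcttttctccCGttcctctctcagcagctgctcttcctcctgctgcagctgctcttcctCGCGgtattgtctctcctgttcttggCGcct
SMUG1: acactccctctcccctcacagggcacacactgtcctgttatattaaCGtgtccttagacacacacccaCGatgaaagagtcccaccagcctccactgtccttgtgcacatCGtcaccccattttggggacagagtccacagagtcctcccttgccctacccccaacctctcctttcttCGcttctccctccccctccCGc

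The widths ranged from 1000 to 10710 bp with a median of 1300 bp. There were 713 peaks under 2000 bp and 129 of 2000 bp or more, and the 842 held 26.9% of the 4821218 bases in the whole list. At the limit, 4 members were tied as narrowest with 1000 bp. They lay 233 bp from the start of SLC16A14, 42051 bp from that of TMEM53, 53239 bp from that of NPIPB3 and 145853 bp from that of TJP1. The 2 widest peaks left out, of 998 bp each, spanned the starts of OLA1 and of GPHN. All 6 of these peaks overlapped a FLAG-ZMYND8 peak, and their CpG ratios were 0.778 to 0.944. By the annotated 5′ ends of protein-coding genes, the 2 outside spanned a start and the 4 inside did not. This contrast depends on the starts used. The peaks listed by SLC16A14 and TMEM53 did cover a transcript start of a protein-coding gene.

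**Figure D1:**
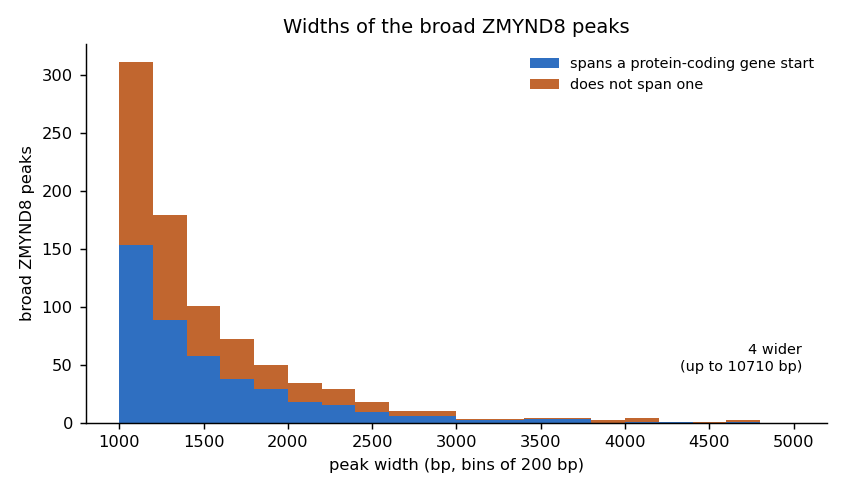
Number of broad ZMYND8 peaks (y axis) by peak width in bp (x axis, bins of 200 bp), with peaks that span a protein-coding gene start in blue and the others stacked above in orange. The numbers fall steeply with width, peaks of both kinds occur at most widths, and 4 peaks wider than the axis shows reach 10710 bp.

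More of the broad ZMYND8 peaks lay over gene starts than anywhere else. A peak was counted as spanning a gene start where it covered the 5′ end of a protein-coding gene of GENCODE release 44, and 435 of the 842 did so, a share of 51.7% (95% Wilson interval 48.3 to 55.0%), beside 10.7% of all ZMYND8 peaks and 8.29% of the 14243 narrower ones. A wider peak has more bases with which to reach a start, so part of this gap follows from the rule. The midpoint, 1 base whatever the width, lay within 500 bp of a start for 343 broad peaks (40.7%, interval 37.5 to 44.1%) and for 24.5% of the narrower peaks. Intervals in this account cover counting error only.

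By width, the midpoint measure did not rise throughout. The share of midpoints within 500 bp of a start was 14.3% among the 7994 ZMYND8 peaks at the minimum width of 151 bp, 33.6% above that and under 500 bp, and 50.2% from 500 bp to under 1000 bp. It was 43.5% among broad peaks under 2000 bp and 25.6% (interval 18.8 to 33.7%) among the 129 of 2000 bp or more. Within 3 kb of a start the same 5 shares were 28.8%, 52.3%, 67.7%, 67.5% and 63.6%. Broad peaks thus lay near gene starts about as often as peaks from 500 bp to under 1000 bp, with the centres of the widest ones displaced from the start itself.

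**Figure D2:**
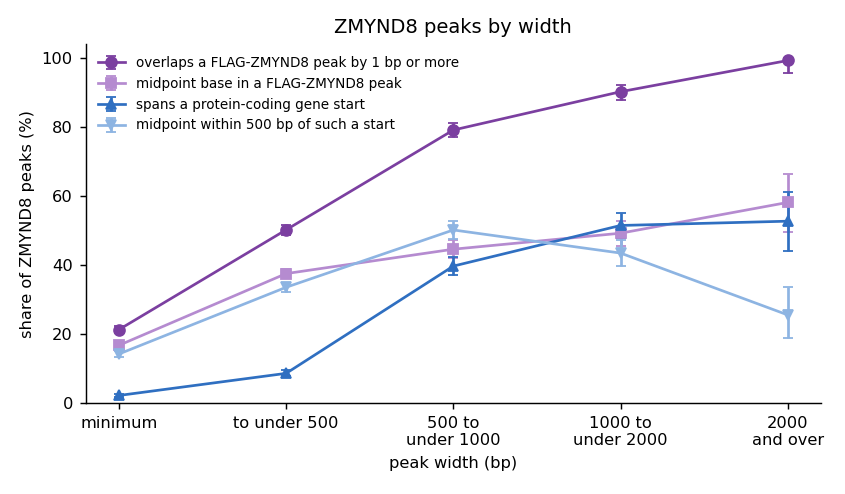
Share of ZMYND8 peaks (y axis, percent, with 95% Wilson intervals) in 5 classes of width (x axis) that overlap or have their midpoint in a FLAG-ZMYND8 peak, span a protein-coding gene start, or have their midpoint within 500 bp of one. Overlap with a FLAG-ZMYND8 peak by at least 1 bp, which wider peaks reach more easily, is 21.3% at the minimum width and 99.2% at 2000 bp or more. For the midpoint base the shares are 16.8% and 58.1%.

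Of all 842, 99 (11.8%) spanned no protein-coding start but that of another annotated gene, such as a non-coding RNA, 127 (15.1%) had their midpoint in an intron and 99 (11.8%) between genes. A further 56 (6.65%) had it in an exon outside coding sequence and 26 (3.09%) in coding sequence. Narrower peaks were spread differently, with 39.1% in introns and 31.7% between genes. Among broad peaks, the median distance from the peak's edge to the nearest protein-coding start was 0 bp (interval 0 to 48 bp), and it was 8337 bp among narrower peaks. The gene's 5′ end as annotated is not always the start in use: with the start of each gene's canonical transcript 511 broad peaks (60.7%) spanned a start, and with any transcript of a protein-coding gene 598 (71.0%).

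Around the annotated 5′ end, broad peaks reached farther into the gene than before it. Where the start in use lies downstream of that end, the downstream extent is enlarged. Extents around canonical starts were not computed. In the 383 peaks that spanned exactly 1 protein-coding start, the median extent was 478 bp upstream and 859 bp downstream, and 259 of them (67.6%) were longer downstream. Narrower peaks with 1 start were longer downstream in 695 of 1082 (64.2%). The base 500 bp downstream was covered in 82.5% of the 383 and the base 500 bp upstream in 47.8%. At 1000 bp the shares were 36.8% downstream and 15.1% upstream.

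Single genes departed from this in both directions. At TRIM8, which encodes a ubiquitin ligase, the peak ran 182 bp upstream and 3576 bp downstream, and at ENO1, which encodes the glycolytic enzyme enolase, 214 bp and 2637 bp. The peak at FOXC1, a forkhead transcription factor gene, had 1162 bp upstream and 2282 bp downstream. Others lay mainly ahead of the gene. The peak at NTN3, which encodes a netrin, a secreted guidance protein, ran 3931 bp upstream and 849 bp downstream, and that at SLC7A5 2106 bp and 787 bp. The peak at the start of ZMYND8 itself lay on both sides, with 2325 bp upstream and 1848 bp downstream.

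**Figure D3:**
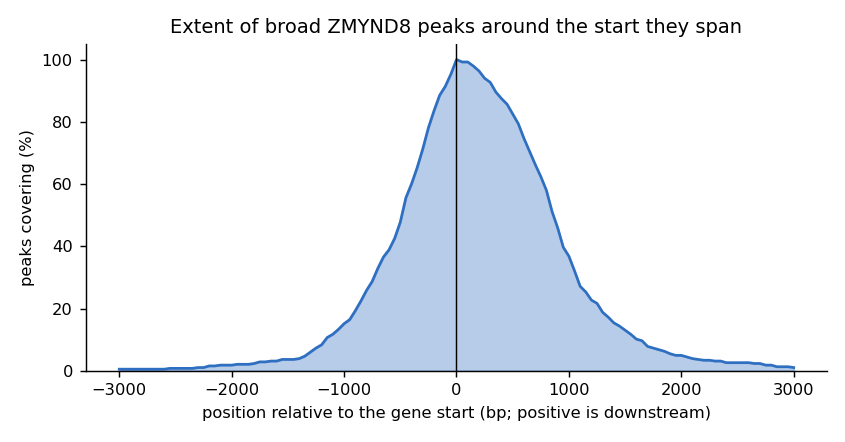
Share of the 383 broad ZMYND8 peaks with exactly 1 protein-coding gene start that cover each position (y axis, percent). The x axis is the distance in bp from the annotated start in the direction of transcription. Broad peaks cover the base 500 bp downstream in 82.5% and the base 500 bp upstream in 47.8%.

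Some broad peaks took in several gene starts. Of the 435, 52 (12.0%) held at least 2 protein-coding starts and 43 (9.89%) held starts on both strands. The peak with the most was 1032 bp wide (chr11:47586615-47587646) and held 3, those of the RNA-binding protein gene CELF1, the complex I subunit gene NDUFS3 and the mitochondrial phosphatase gene PTPMT1. Next came peaks with 2 starts, such as 1230 bp at RBBP4, which encodes a histone-binding subunit of NuRD, and ZBTB8OS, and 1301 bp at CNOT9, which encodes a subunit of the CCR4-NOT deadenylase, and USP37, a deubiquitinase gene.

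Broad peaks were rich in G and C and in CpG. Their median GC content was 65.3% (interval 64.7 to 65.9%) and their median CpG ratio 0.778 (0.764 to 0.792), and the narrower peaks had medians of 60.9% and 0.514. The 500 bp on each side of the broad peaks had medians of 50.6% and 0.505. GC was higher inside the peak than in its flanks for 789 members (93.7%), and the CpG ratio for 733 (87.1%). A GC content over 50% with a CpG ratio over 0.6, limits commonly used for CpG islands, was met by 661 broad peaks (78.5%), beside 45.5% of all ZMYND8 peaks. In the central 300 bp, a length equal for all peaks, those limits were met by 72.9% of broad and 43.0% of narrower peaks.

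In the same central 300 bp, the share that met the CpG island limits was 26.4% at the minimum width, 59.3% above it and under 500 bp, 80.3% from 500 bp to under 1000 bp, 76.2% in broad peaks under 2000 bp and 55.0% (interval 46.4 to 63.4%) at 2000 bp or more. The widest class was therefore below the 2 classes before it. Base composition went with position: broad peaks over a protein-coding start had medians of 66.3% GC and a CpG ratio of 0.812, and the other broad peaks 63.0% and 0.688. Narrower peaks over a start had 69.0% and 0.866, above the broad ones. These medians are over whole peaks of unlike length, with median widths of 496 bp for the narrower and 1318 bp for the broad. In promoter windows of equal length, given below, the order was not repeated, and the intervals overlapped. Median GC was 68.7% (67.3 to 70%) for genes under broad peaks and 67.0% (66.3 to 67.7%) under narrower ones. The CpG ratios were 0.880 (0.8634 to 0.8935) and 0.864 (0.8543 to 0.8749).

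**Figure D4:**
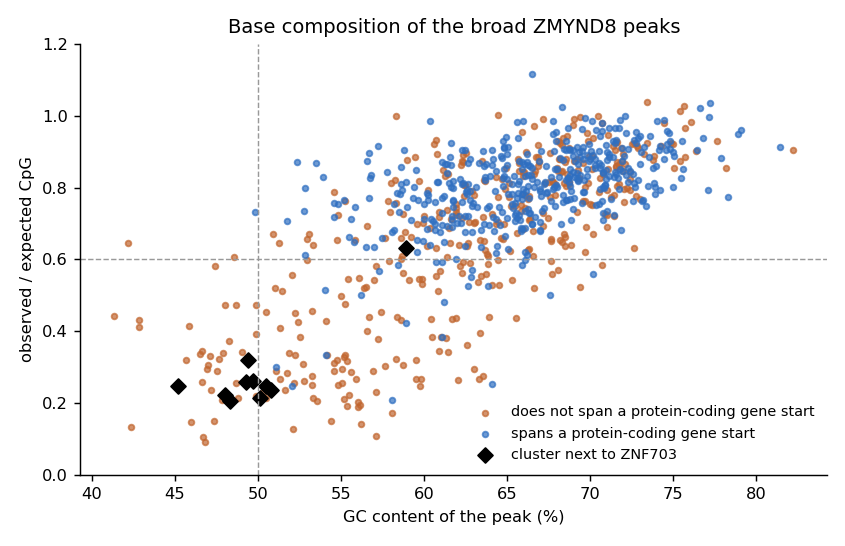
CpG ratio (y axis, observed over expected) by GC content in percent (x axis) of each broad ZMYND8 peak, coloured by whether it spans a protein-coding gene start. Most peaks form one group around 65.3% GC and a ratio of 0.778, and the 98 peaks under a ratio of 0.4 include 6 that span a start.

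GC content was highest in the peak over STK24-AS1, an antisense RNA gene, and the canonical start of the kinase gene STK24, with 82.2% (chr13:99228727-99229846), followed by that at ADCY3, whose bases are printed above, with 81.4%. It was lowest, at 41.4%, in a peak with its midpoint in coding sequence (chr13:100516065-100518088), 105933 bp from the nearest start, that of ZIC5, a zinc finger gene of neural development. The CpG ratio was highest, at 1.115, in the peak at SRSF6, which encodes a splicing factor (chr20:42085907-42087277). The lowest, 0.0923, belonged to a peak in an intron of HLA-DRB5, an antigen-presenting MHC class II gene. That peak overlapped no FLAG-ZMYND8 peak.

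A group of 98 broad peaks (11.6%) had CpG ratios under 0.4, and these lay away from promoters. Of them, 42 had their midpoint between genes, 38 had it in an intron and 6 spanned a protein-coding start, and their median width was 1426 bp. The 6 were at ZMYND8, at ASS1, which encodes argininosuccinate synthase, at BTBD19 with DYNLT4, at PLAT, which encodes tissue plasminogen activator, at CCDC9B and at GATA4, a transcription factor gene of heart and gut. In the other direction, 413 of the 665 members with a ratio of at least 0.6 (62.1%) spanned a start. A FLAG-ZMYND8 peak overlapped 91 of the 98 CpG-poor members (92.9%) and 90.7% of those with a ratio of at least 0.6. Midpoints of the CpG-poor members lay in a FLAG-ZMYND8 peak in 65.3%. Another broad peak lay within 100 kb of 31.6% of them, against 14.4% of the CpG-rich ones. Part of that 31.6% comes from 1 locus, the cluster of 10 at ZNF703 described below, where all but the peak over the gene start are CpG-poor.

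By an overlap of at least 1 bp, the 2 precipitations met at most broad peaks. A wider peak has more bases with which to overlap, so part of this follows from the rule. A FLAG-ZMYND8 peak overlapped 771 of the 842 by at least 1 bp (91.6%, interval 89.5 to 93.3%), beside 40.0% of all ZMYND8 peaks and 37.0% of the narrower ones. The midpoint base alone lay in a FLAG-ZMYND8 peak for 426 broad peaks (50.6%, interval 47.2 to 54.0%) and for 26.6% of the narrower ones. By width class the midpoint share was 16.8%, 37.5%, 44.6%, 49.2% and 58.1% from the narrowest to the widest. The 1 bp overlap in the widest class was 128 of 129.

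By position, overlap was 92.0% in broad peaks over a protein-coding start (400 of 435) and 91.2% in the others (371 of 407), and in narrower peaks it was 67.8% over a start and 34.2% elsewhere. The broad shares are near the highest possible. For the midpoint base alone, the share was 46.9% (interval 42.3 to 51.6%) in broad peaks over a start and 54.5% (49.7 to 59.3%) in the others, whereas it was 41.4% and 25.3% in narrower peaks. By this measure the order in broad peaks was opposite to that in narrower ones. No test was made of these differences.

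Within a broad ZMYND8 peak, FLAG-ZMYND8 peaks were mostly shorter, and 404 of the 842 (48.0%) overlapped at least 2 of them. The 771 members with a partner overlapped a median of 2 FLAG-ZMYND8 peaks and at most 6, which covered a median of 55.2% of their bases. The widest partner had a median width of 650 bp, and 687 of the 771 (89.1%) were wider than it. The peak at HES4, a transcriptional repressor gene, and ISG15, which encodes an interferon-induced ubiquitin-like protein, was 4217 bp wide (chr1:933280-937496) and was covered to 38.4% by 6 FLAG-ZMYND8 peaks. In contrast, 1 FLAG-ZMYND8 peak covered the whole of the peaks at SLC7A5 and ENO1. Over all broad peaks, 52.0% of the bases were shared with FLAG-ZMYND8, and over the narrower peaks 32.9%.

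Breadth itself was shared by fewer. A FLAG-ZMYND8 peak that was also at least 1000 bp wide overlapped 220 broad ZMYND8 peaks (26.1%) and 2.30% of the narrower ones. From the other list, 549 of the 1147 FLAG-ZMYND8 peaks of that width (47.9%) overlapped some ZMYND8 peak and 237 (20.7%) a broad one, whereas 1.70% of the 62541 FLAG-ZMYND8 peaks under 1000 bp overlapped a broad one. The 220 had a median width of 1582 bp and a median CpG ratio of 0.713, and 43.6% of them spanned a protein-coding start. The other 622 had 1248 bp and 0.795, and 54.5% spanned a start.

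No FLAG-ZMYND8 peak overlapped 71 members. Their median width was 1160 bp, 35 of them (49.3%) spanned a protein-coding start and their median CpG ratio was 0.820. In 48 (67.6%) a FLAG-ZMYND8 peak lay within 5 kb. The widest, 2263 bp, was that of FOXO1 (chr13:41238051-41240313), part of whose bases are printed above. It lay 465 bp downstream of the start of this forkhead factor gene, with its midpoint in the first intron. The next was 1906 bp near GEMIN4, which encodes an SMN complex protein. Then came peaks over gene starts, 1879 bp at PXDC1, 1872 bp at SLC16A6, which encodes a monocarboxylate transporter family member, and 1832 bp at NUDT19.

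Most broad peaks stood alone along the chromosomes. The median gap to the next broad peak was 637630.5 bp, and 149 members (17.7%, interval 15.3 to 20.4%) had another within 100 kb. At that distance, 693 were alone and 149 fell into 62 clusters, of which 51 held 2 peaks, 5 held 3, 4 held 4, 1 held 6 and 1 held 10. The cluster of 10 ran over 399410 bp before and across ZNF703, a transcriptional repressor gene on chromosome 8, and its peaks covered 43498 bp. The 4 widest of all broad peaks were in it, with 10710, 7765, 7464 and 6430 bp, and each overlapped 2 to 6 FLAG-ZMYND8 peaks. The peak over the gene start had a CpG ratio of 0.632, and the other 9 had 0.206 to 0.321.

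The HOX clusters, whose genes encode homeodomain factors that set position along the body axis, held 15 broad peaks by nearest gene, and all 15 overlapped FLAG-ZMYND8. The group at HOXC had 6 peaks with neighbouring SMUG1 included, spread over 195509 bp (chr12:54361396-54556904). From the first to the last, their widths were 1116, 2450, 4433, 3842, 1312 and 4092 bp. None covered the annotated 5′ end of a protein-coding gene, although those of 2450 and 4433 bp ended 670 bp from that of HOXC4 and 78 bp from that of HOXC5. The canonical transcript of HOXC4 starts far downstream of the gene's annotated 5′ end, and the peak of 3842 bp, with a CpG ratio of 0.475, covered that start. The CpG ratios of these 6 were low, from 0.194 to 0.546, the lowest in the SMUG1 intron printed above. SMUG1 encodes a uracil-DNA glycosylase of base excision repair. FLAG-ZMYND8 peaks covered 71.1 to 100% of each. They were also dense between the broad peaks, as with that of 3398 bp that began 22281 bp from the HOXC11 start. The share of the whole locus that they covered was not computed, so the coverage of the 6 has no local baseline.

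**Figure D5:**
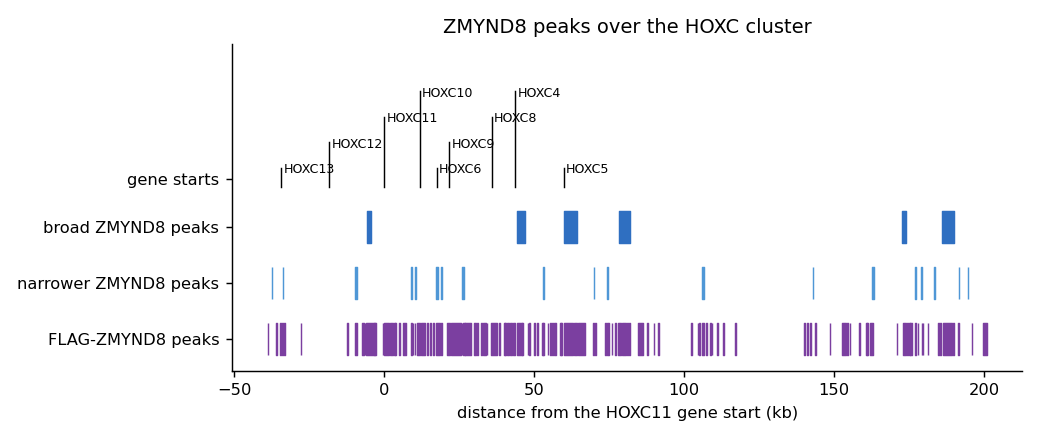
Positions of HOXC gene starts, broad ZMYND8 peaks, narrower ZMYND8 peaks and FLAG-ZMYND8 peaks (rows) over the HOXC cluster by distance from the HOXC11 start in kb (x axis). The 6 broad peaks lie in 3 stretches, and each meets FLAG-ZMYND8 peaks, which are also dense between the broad peaks. Lines have a minimum thickness, so the narrowest peaks are drawn slightly wide.

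The 4 broad peaks at HOXB (chr17:46617670-46698205) were 1868, 1083, 1534 and 1772 bp wide, again with no protein-coding start and with CpG ratios of 0.439 to 0.543. At HOXD (chr2:176956757-177054114), by contrast, 3 of 4 spanned a start, those of HOXD13 (1901 bp), HOXD8 (1424 bp) and HOXD1 (1080 bp), with CpG ratios of 0.803, 0.987 and 0.899. At HOXA the peaks over HOXA11 (1813 bp) and HOXA4 (1441 bp) had 0.777 and 0.755. The 5 peaks over an annotated HOX 5′ end thus had CpG ratios above those of all HOXB and HOXC peaks, the one over the canonical HOXC4 start included.

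Another cluster, of 4 peaks in 77457 bp, lay at FOXC1 (chr6:1608988-1686444). The peak over the gene, 3445 bp, and the next, 1695 bp and 4047 bp away from the start, had CpG ratios of 0.926 and 0.853. The other 2, 60992 and 75164 bp from the start, were 1019 and 1131 bp wide and had 0.374 and 0.344. As in the cluster at ZNF703, the peaks far from the gene start were CpG-poor and still overlapped FLAG-ZMYND8.

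Chromosome X held few members. There were 4 broad peaks among its 508 ZMYND8 peaks (0.787%), and on the other chromosomes the share ran from 2.83% on chromosome 19 to 7.82% on chromosome 4. The 4 lay over the starts of ZFX, a zinc finger factor gene (2784 bp), and DDX3X, an RNA helicase gene (1797 bp), and between genes, nearest to CXorf58 (1168 bp) and to BCOR, a corepressor gene (1134 bp). No test of the difference was made, and copy number in these cells was not examined.

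Outside the clusters, the widest members mixed promoters with other sites. A peak of 4789 bp lay in a coding exon of TCHH, which encodes trichohyalin of the hair follicle, 2696 bp from the start (chr1:152080436-152085224), and 2 FLAG-ZMYND8 peaks covered 33.9% of it. NTN3 had 4781 bp (chr16:2517367-2522147). The 4174 bp peak at ZMYND8 (chr20:45983785-45987958) was covered to 73.6% by 4 FLAG-ZMYND8 peaks and had 51.1% GC with a CpG ratio of 0.301, below most promoter peaks. A peak of 4136 bp spanned the start of the antisense gene GATA6-AS1, 89 bp from GATA6, which encodes an endoderm and heart factor.

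The remaining members of the 15 widest were those over SPEN-AS1 and the canonical start of SPEN, a corepressor gene (4033 bp), in an intron with ARHGEF16 as the nearest start at 48267 bp (3934 bp), and over TRIM8 (3759 bp). Distance reached its extremes elsewhere. The farthest member from any protein-coding start lay 983529 bp from SPATA31A7 on chromosome 9 and overlapped no FLAG-ZMYND8 peak. Its sequence has 2 other matching places in the genome, at up to 96.55% identity, so its position is not certain. The next farthest member was 518515 bp from the annotated 5′ end of FOXP1, a forkhead factor gene, though with its midpoint in an exon of that gene, and the third 421458 bp from BCOR. The FOXP1 value shows how an annotated 5′ end far upstream enlarges this distance.

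The starts of 488 of 20098 protein-coding genes lay under a broad peak (2.43%), and those of 8.81% under any ZMYND8 peak. By canonical starts 565 of 19819 genes (2.85%) lay under a broad peak, and 667 of the 20098 (3.32%) had one within 3 kb. Against that background the gene lists chosen for ZMYND8 and this cell line are described by their counts alone. Heat shock and chaperone genes had 5 of 34 (14.7%), namely HSPE1 (1764 bp), which encodes the mitochondrial co-chaperonin, STIP1 (1424 bp) and DNAJA1 (1398 bp), which encode co-chaperones, HSP90B1 (1140 bp), which encodes the chaperone of the endoplasmic reticulum, and HSPA4 (1065 bp), an HSP70 family gene. All 5 peaks overlapped FLAG-ZMYND8. By canonical transcript starts HSP90AA1 and HSPD1 joined them, which made 7.

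HOX genes had 5 of 39 (12.8%), the 5 named above. Within 3 kb of a broad peak lay 11 of the 39, beside 3.32% of all protein-coding genes. By canonical starts HOXC4 was added, which made 6. Forkhead factor genes had 5 of 51 (9.80%), namely FOXC1, FOXF2 (2445 bp), FOXD3 (2330 bp), FOXN4 (1698 bp) and FOXD1 (1019 bp). In total 14 broad peaks had a forkhead gene as the nearest, with a median CpG ratio of 0.852, and 13 of them overlapped FLAG-ZMYND8, the exception being that of FOXO1. HOX peaks were lower in CpG, with a median of 0.543 over their 15.

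ZMYND8 with its NuRD, zinc finger and demethylase partners had 3 of 26 (11.5%), which were ZMYND8, RBBP4 and ZNF592 (1094 bp), a zinc finger protein gene of the ZMYND8 complex. Histone H3 acetyltransferase genes had 1 of 18, KAT2B (1009 bp). In the list of bromodomain BET and P-TEFb genes none of 18 had a start under a broad peak. With 2.43% over all protein-coding genes, a list this small could hold none by counting alone. Replication-dependent histone genes had 2 of 64, H2AC13 and H2BC13, which share 1 peak of 1027 bp.

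Among genes of signalling and stress, the list of amino acid and integrated stress response genes had 2 of 23 (8.70%), SLC7A5 and the lipoprotein receptor gene VLDLR (1418 bp), and by canonical starts also ATF5. The ID and HES or HEY repressors had 1 of 14, HES4. The feedback phosphatase and Sprouty list had 1 of 17, DUSP7 (1823 bp). AP-1 and immediate early genes had 1 of 41, ZFP36L1 (2847 bp), an mRNA decay factor gene. That is 2.44%, the same as the 2.43% of all protein-coding genes to within 1 gene. The E2F, cyclin and CDK list also had 1 of 41 (2.44%), CDKN2A (1886 bp), the cell cycle inhibitor gene. By canonical starts it had CCND2 in its place. By canonical starts ZFP36L1 was no longer counted.

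Housekeeping lists were near or above the background, with small numbers. Cytosolic ribosomal protein genes had 3 of 80, RPL15 (1533 bp), RPS23 (1195 bp) and RPS13 (1034 bp), and the peak at RPS23 overlapped no FLAG-ZMYND8 peak. Actin and tubulin genes had 1 of 25, TUBA1B (1892 bp). Splicing factor genes of the SR and hnRNP families had 1 of 38, SRSF6, joined by HNRNPH1 by canonical starts. The C2H2 genes named ZNF had 8 of 476 (1.68%), among them ZNF703, ZNF775 (1886 bp) and ZNF692 (1293 bp), and 7 by canonical starts. None of 26 SP and KLF, 28 ETS and 19 SOX factor genes had a start under a broad peak. With 2.43% over all protein-coding genes, lists of these sizes could hold none by counting alone. Over all lists 39 of 1063 genes had one, beside 488 of 20098 protein-coding genes.

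The genes themselves were little set apart from those under narrower peaks. Promoters, taken from 250 bp before to 50 bp after the gene start, had a median GC content of 68.7% and CpG ratio of 0.880 for the 488 genes under broad peaks. They had 67.0% and 0.864 for the genes under narrower peaks and 60.3% and 0.694 for all protein-coding genes. Median gene lengths were 36097.5, 37391 and 27256.5 bp in that order. These medians differed less between broad and narrower peaks than between either and all genes.

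Sequence motifs were counted on both strands of those promoters as exact strings. The GC box GGGCGG, bound by SP and KLF factors, occurred in 74.4% of the promoters under broad peaks, 71.8% under narrower peaks and 52.2% of all. It also stands in the printed SLC7A5 and ADCY3 stretches. The E-box CACGTG occurred in 15.8%, 14.1% and 8.33%, and the CRE TGACGTCA, bound by CREB and ATF factors, in 4.10%, 3.90% and 2.29%. For CCAAT, bound by NF-Y, the order was the other way, with 26.4%, 29.0% and 35.8%.

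Promoters under broad and narrower peaks stood farthest apart in ratio for the ETS string CCGGAAGT. It had 5.12% and 9.67%, beside 5.08% of all promoters. The AP-1 string TGACTCA had 2.46%, 2.42% and 3.98%, in the same order. In the central 300 bp of the peaks themselves, the ETS string did not differ, with 1.66% of broad and 1.66% of narrower peaks. There the CRE stood farther apart, with 1.66% and 0.639%. GC-rich strings are more frequent in GC-rich promoters. A match is a count of letters and not a bound site.

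Few broad peaks had a near-identical copy elsewhere in the genome. Interspersed repeats and tandem repeats within a peak were not examined. The 3 copies at SLC7A5, SLC7A5P2 and SLC7A5P1 were the only members that matched another member over at least 50% of the shorter one at 90% identity or more. SLC7A5 (2894 bp, chr16:87902326-87905219) and SLC7A5P2 (2238 bp, chr16:21531162-21533399) were 96.1% identical over 2240 aligned bp, and SLC7A5P1 (1688 bp, chr16:29624548-29626235) was 96.6% identical to SLC7A5 over 1690 bp and 98.0% to SLC7A5P2 over 1695 bp. Reads from such copies could be assigned to any of them, so the 3 peaks are not certain to be separate sites. Counting the rest of the genome, 12 of the 842 (1.43%) had a second matching place, and 11 of these overlapped FLAG-ZMYND8.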

How the data were processed

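Reads were mapped by the authors with BWA (0.7 for the ZMYND8 samples, per the labels) to hg19, and HOMER was used. The peak-calling settings and the way replicates were combined are not given in the sources used here. Each of the 2 lists analysed has 6 columns and no header, and the score that the authors deposited is 1 for every peak, so it ranks nothing. Starts were taken as counting from 0 and were written counting from 1. The 842 members, the gene lists and the rule for named genes were chosen with earlier results of these data known. The rule named the 15 widest peaks, list genes, the largest clusters, peaks at the width limit (ties at 1000 bp all named, those at 997 bp left out), the widest peaks without FLAG overlap, and the extremes of distance, starts and composition. SLC7A5P1, SLC7A5P2, CXorf58, ZFX, DDX3X, ENO1, the 6 genes of CpG-poor peaks and the HOXB and HOXD peaks were named after their values were seen.

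Overlaps, distances and composition were computed with Python 3.11.15, numpy 2.4.6, pandas 2.3.3, scipy 1.17.1 and pysam 0.24.0, with the GRCh37 sequence and GENCODE release 44 lifted to it (63827 genes, 20098 protein-coding). Copies were found with blastn 2.17.0 and minimap2 2.31. Shares carry 95% Wilson intervals and medians order-statistic intervals. No test was made, because peaks are not replicates. Functions were tested on simulated lists. Alternatives were other widths, starts, overlaps, windows and gaps.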

Additional observations from a re-analysis of the deposited data

How the results depend on the processing

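Of 36 alternative values, 15 stayed within the interval of the value reported or within 1.5 times a count, and 21 moved. The share of broad peaks that span a protein-coding start rose to 71.0% with all transcript starts, 60.7% with canonical starts (an alternative chosen after seeing the data), 66.9% for midpoints within 3 kb and 63.4% with the starts of all genes. The median distance became 708 bp from the midpoint. FLAG-ZMYND8 overlap was 50.6% for the midpoint base, 32.1% for a reciprocal overlap of 50% and 26.1% with FLAG-ZMYND8 peaks of at least 1000 bp. With a minimum width of 1500 bp, which leaves 291 peaks, FLAG-ZMYND8 overlap was 96.2%, the share with a broad neighbour 11.7%, the median GC content 63.6%, the CpG ratio 0.748 and the number of list genes 17. With 750 bp, which takes in 1412 peaks, overlap was 89.0%, neighbours 23.2% and the CpG ratio 0.794. In the central 300 bp the medians were 68.5% GC and 0.821. Neighbours were 6.06% at 20 kb and 44.9% at 500 kb. Within 3 kb of a broad peak lay 60 list genes, against 39 with the start under one. Over all protein-coding genes these shares were 3.32% and 2.43%. Without the cluster of 10, which left 832 peaks, none of the 7 results moved by this measure. No paired analysis was possible because each target has 1 list that names no replicate. The lists hold no counts, so depth sets no stated limit, and whether a broad peak is 1 site or several joined by the peak caller was not tested.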
